A study of Mus musculus with 8 samples.

Results

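Meiotic prophase is the stage at which homologous chromosomes are paired, joined and recombined, and 34 mouse genes that build its chromosome axis or carry out recombination were followed in Thy1+ testis cells of newborn mice. The genes were a fixed list of symbols, and each was looked up on the array through the RefSeq accession of its probes. Of the 34 genes, 28 had a named probe, with 39 probes between them, and all 28 passed the filter on dim probes, among 17513 genes that passed it of 19096 with a named probe. Sycp3, Hormad2, Syce3, Rad21l, Spata22 and Rnf212 had no probe matched by accession and were not analysed here. The cells came from testes of C57BL/6 pups at postnatal day 4 and were isolated by the surface protein Thy1, which enriches spermatogonial stem and progenitor cells. There were 4 samples labelled Glis3KO2 and 4 wild type (WT) samples, with no treatment in either, each on its own 1-colour Agilent array. Glis3 encodes a GLI-related zinc finger protein that regulates transcription, and the series asks what its loss does to spermatogenesis. Only 3 testes of each genotype are mentioned in the design text, against 4 labelled samples, and no source states that samples are separate animals, so p-values measure a spread that may be technical.

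In mammalian meiosis the sister chromatids are first organised along a protein axis by cohesin and HORMA domain proteins, and the synaptonemal complex then zips the homologous axes together. SPO11 cuts the DNA at sites marked by the histone methyltransferase PRDM9, the strand exchange protein DMC1 uses the ends to find the homologue, and a few of the breaks become crossovers. In the male mouse these events take place in spermatocytes, a cell type that appears some days after the age studied here. At this age the germ cells of the testis are gonocytes and early spermatogonia, and no spermatocyte is known to be present. Some meiotic genes are nonetheless known to be transcribed in spermatogonia, before the main induction that depends on Stra8.

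Promoter sequence was examined because many of the genes moved together across arrays. RefSeq promoter windows of 300 bases (250 before to 50 after the start site, GRCm38.p6) were found for 30 of the 34 genes, and not for Spo11, Tex11, Meiob and Tex15. The E2F motif TTCCCGC was found on either strand in windows of 11 of these 30 genes, against 6.84% of all protein-coding genes. Those 11 were Hormad1, Smc1b, Stag3, Syce2, Sycp3, Tex12, Tex14, Prdm9, Msh5, Spata22 and Rnf212. The E-box CACGTG, which reads the same on both strands, was found in 7 of the 30 (8.91% of protein-coding genes), and 6 of those 7 also held the E2F motif, the exception being Sycp1. The motif CNCCTCAG, known as the STRA8 motif, was found in 7 of the 30 (9.86%), and the MYB motif AACNGTT in 1, Sycp1 (4.6%). No motif here contains another, and a match is a description of letters, not of binding. In mouse embryonic stem cells, E2F and E-box motifs are known to recruit a Polycomb repressor complex that keeps germline genes silent.

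The windows of 5 genes are printed 5′ to 3′ in the direction of transcription, with matched motifs in capitals. Stag3, Tex12 and Hormad1 are shown because they hold the E2F motif and the E-box together, Smc1b because it holds the E2F motif alone, and Mei4 because it had the largest difference between genotypes and holds none of the 4.
Stag3, chr5:138280259-138280558, plus strand: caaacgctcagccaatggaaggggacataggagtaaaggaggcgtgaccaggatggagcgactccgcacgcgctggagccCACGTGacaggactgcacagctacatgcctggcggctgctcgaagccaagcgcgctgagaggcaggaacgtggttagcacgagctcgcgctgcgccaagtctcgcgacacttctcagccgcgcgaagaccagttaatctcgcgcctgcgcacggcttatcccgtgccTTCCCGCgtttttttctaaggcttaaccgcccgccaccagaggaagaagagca
Tex12, chr9:50561219-50561518, minus strand: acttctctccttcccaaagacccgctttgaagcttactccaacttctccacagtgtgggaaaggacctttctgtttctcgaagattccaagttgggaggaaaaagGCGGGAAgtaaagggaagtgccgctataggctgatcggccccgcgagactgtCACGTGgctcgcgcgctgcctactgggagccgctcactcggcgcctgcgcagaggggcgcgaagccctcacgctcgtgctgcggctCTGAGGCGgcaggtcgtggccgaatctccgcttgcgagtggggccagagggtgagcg
Hormad1, chr3:95559427-95559726, plus strand: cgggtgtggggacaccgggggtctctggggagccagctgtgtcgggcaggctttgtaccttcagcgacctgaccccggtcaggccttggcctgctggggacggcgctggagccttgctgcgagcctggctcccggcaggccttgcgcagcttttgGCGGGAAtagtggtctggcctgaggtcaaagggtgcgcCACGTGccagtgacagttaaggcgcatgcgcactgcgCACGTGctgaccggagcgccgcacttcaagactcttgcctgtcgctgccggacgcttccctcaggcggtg
Smc1b, chr15:85131908-85132207, minus strand: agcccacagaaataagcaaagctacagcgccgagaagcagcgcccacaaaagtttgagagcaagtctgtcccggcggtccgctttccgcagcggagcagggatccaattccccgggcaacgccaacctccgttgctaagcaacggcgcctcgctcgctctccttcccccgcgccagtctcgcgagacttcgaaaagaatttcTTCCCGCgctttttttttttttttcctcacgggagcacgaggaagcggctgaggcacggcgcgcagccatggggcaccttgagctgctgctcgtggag
Mei4, chr9:81863420-81863719, plus strand: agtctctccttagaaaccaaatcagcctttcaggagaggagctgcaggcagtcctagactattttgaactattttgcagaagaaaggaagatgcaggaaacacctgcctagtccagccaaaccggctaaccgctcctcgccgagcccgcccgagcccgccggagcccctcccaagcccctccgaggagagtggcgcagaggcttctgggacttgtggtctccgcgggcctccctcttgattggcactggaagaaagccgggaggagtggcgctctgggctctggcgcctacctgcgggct
The first base of the E2F match lay at -3 in Stag3, -145 in Tex12, -95 in Hormad1 and -48 in Smc1b, counted from the start site. Tex12 also holds the STRA8 motif on the opposite strand, written here as CTGAGGCG. The windows of the 30 genes were rich in CpG, with a median of 18.5 CpG each against 13.0 over windows of protein-coding genes and a range of 2 to 41.

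The values are intensities of 1 fluorescent dye, given below as a level: log2 of the background-corrected spot signal minus the 75th percentile of its array. A level of 0 is that percentile itself, and levels of different probes are not comparable as amounts of transcript. The 75th percentile itself was 243 to 533 intensity units, and 86.0% to 90.3% of spots were well above background, with no saturated spot. A limit on the precision is that there were only 4 arrays per genotype. Glis3, the targeted gene, had levels of -1.98, -2.18, -1.18 and -1.32 in Glis3KO2 samples, against -1.09, -1.01, 0.57 and 0.60 in WT samples. No Glis3KO2 sample reached the lowest WT sample, although the difference of -1.43 (SE 0.45) had an adjusted p of 0.697 in the limma fit over all genes, and the sources do not place its probe relative to the deletion. WT replicates 3 and 4 stood apart from the other 6 samples: on the first principal component (32.3% of the variance) they lay at 69.1 and 60.0, and no other sample lay above 3.85. On the second component (20.1%), WT replicate 1 lay apart at -80.8, and no other sample lay below -3.2. Values without WT replicates 3 and 4 are given further on.

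Most of the meiotic genes gave signal at postnatal day 4 by the scanner's own test, as did most named genes on the array. Of the 28 measured genes, 25 were flagged well above background on all 4 Glis3KO2 arrays (86.2% of all named genes were), against 23 on all 4 WT arrays (86.8% of all named genes), and 23 were flagged on all 8 (84.5%). The flag does not mark the onset of meiosis, since 13 of 13 markers of pachytene spermatocytes and spermatids, cells not known to be present at this age, were also flagged on all 8 arrays. Among these markers are the protamine genes Prm1 and Prm2 and the transition protein genes Tnp1 and Tnp2, which package the DNA of sperm heads. Others of the 13, such as the heat shock protein gene Hspa2, are made by other cells too. Set against the 99th percentile of each array's negative control spots instead, 20 of the 28 genes lay above it on all 4 Glis3KO2 arrays (78.7% of all named genes did) and 28 on all 4 WT arrays (97.1%). That percentile was 37.0 intensity units on Glis3KO2 replicate 2 and 2.41 to 3.81 units on the other 7 arrays, so the order of the genotypes by this count depends on the detection rule.

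Of the 28 genes, 5 missed the flag on at least 1 array (84.5% of all named genes were flagged on all 8). By role, 4 of the 5 belong to break formation, strand exchange or crossovers, classes that hold most of the 28 genes (5, 6 and 6). Prdm9, which marks the sites of breaks, was flagged on 3 of 4 Glis3KO2 arrays and 1 of 4 WT arrays, and Dmc1, the meiotic strand exchange protein, on 3 of 4 in each genotype. Msh4, which with Msh5 forms a clamp on crossover intermediates, was flagged on 3 of 4 arrays in each genotype. Msh5 itself and Terb1, which anchors telomeres to the nuclear envelope, were flagged on all 4 Glis3KO2 arrays and 3 of 4 WT arrays. By level, Syce2, Stag3, Trip13, Tex15 and Zcwpw1 lay above the 75th percentile on all 8 arrays, while 14 of the 28 genes lay below it on all 8. The shares of all genes are not given here, so these counts do not show the meiotic genes to be unusually bright or dim.

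**Figure D1:**
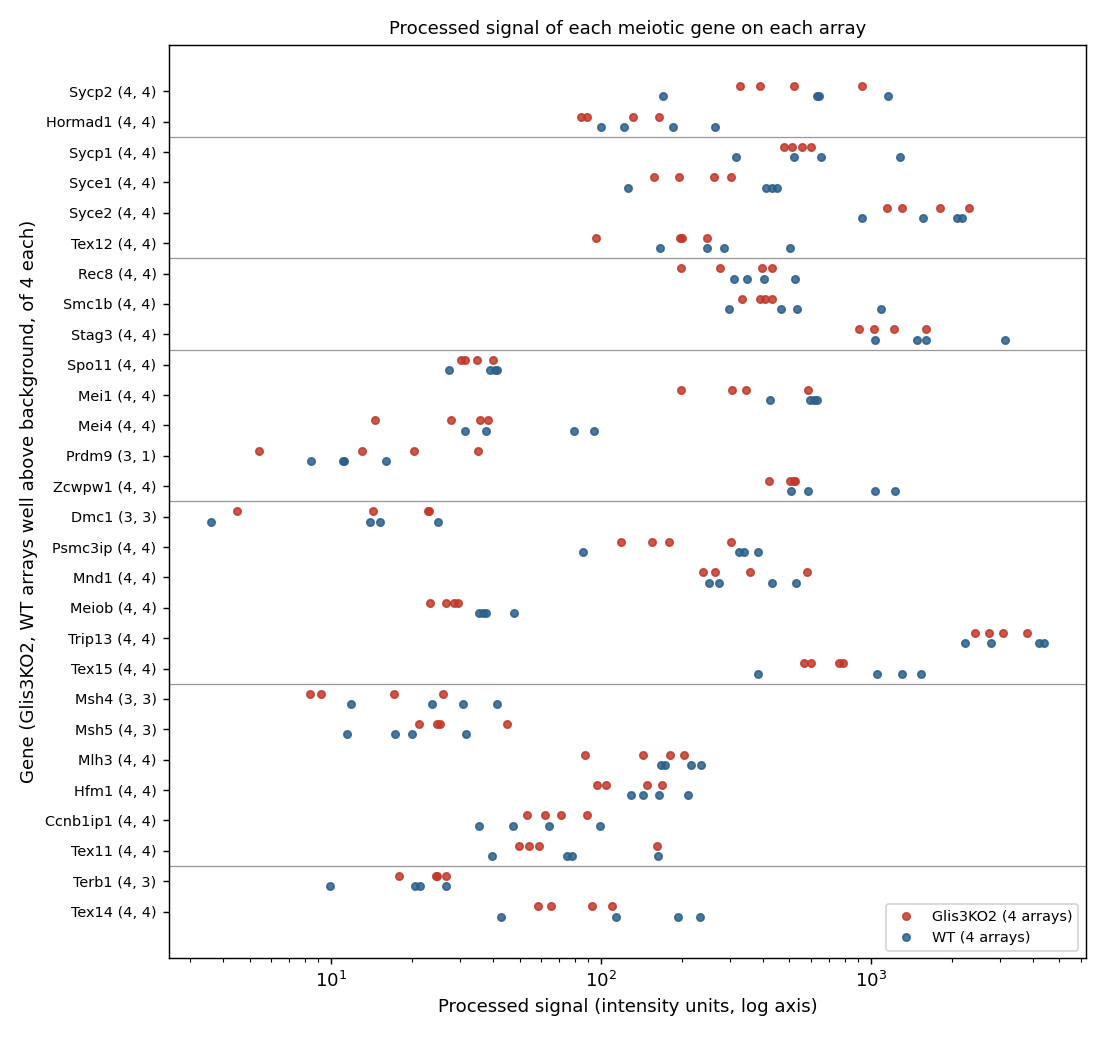
Processed signal (intensity units, log axis) of the 28 measured meiotic genes on each array, with Glis3KO2 in red and WT in blue and the number of arrays flagged well above background beside each name. Points of 1 gene can be set against each other but points of different genes cannot, since probes differ in brightness; Prdm9, Dmc1 and Msh4 missed the flag in both genotypes, and on this axis, before the array's 75th percentile is taken off, the Meiob points of the genotypes do not overlap although its levels do.

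No meiotic gene passed the test between Glis3KO2 and WT cells, and most had lower means in Glis3KO2 samples. In the limma fit over all 17513 genes, 0 of the 28 genes had an adjusted p under 0.05 (0% of all genes had), and the smallest adjusted p among them was 0.697. At an unadjusted p under 0.05 there was 1 gene, Zcwpw1, which is 3.57% of the 28 against 6.9% of all genes. In 0 of the 28 did the Glis3KO2 and WT samples fail to overlap, against 3.5% of all genes. The direction was less even: 23 of the 28 had a lower mean in Glis3KO2 samples (59.2% of all genes had), with a median difference of -0.43 against -0.08 over all genes. A difference below -0.5 was found for 13 of the 28 (13.1% of all genes), and 1, Msh5, was above 0.5. With the replicate number as a block, which the pairing check allowed, 5 genes had an unadjusted p under 0.05 (Mei1, Mei4, Zcwpw1, Meiob and Msh4), against 10.7% of all genes, and 0 passed after adjustment. In bulk RNA of this kind, fewer germ cells in a sample and less RNA per germ cell cannot be told apart.

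**Figure D2:**
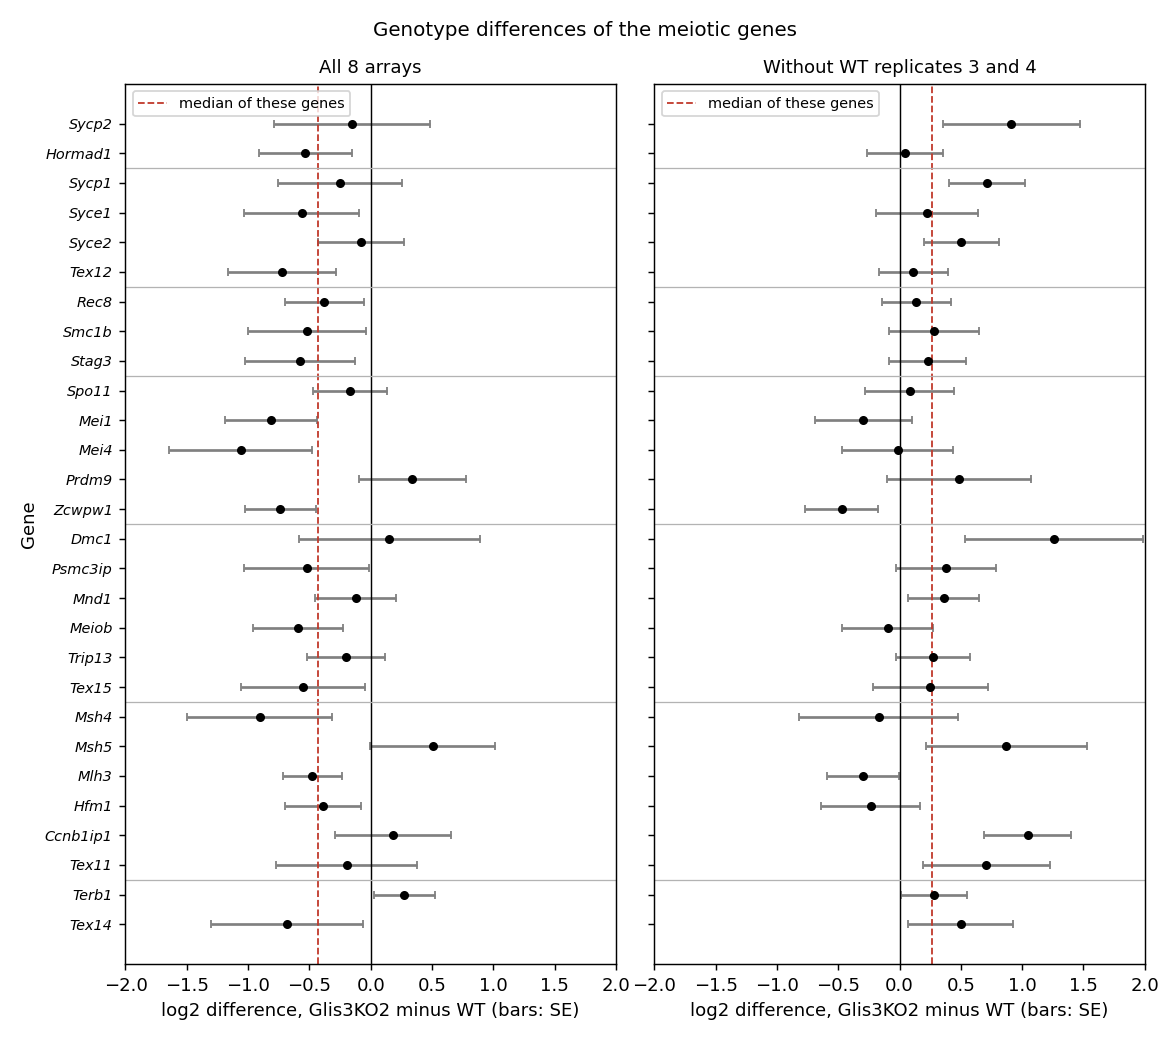
Log2 difference, Glis3KO2 minus WT, with its standard error for each measured meiotic gene, over all 8 arrays (left) and without WT replicates 3 and 4 (right); the dashed line is the median over the 28 genes. The median is -0.43 on the left and 0.26 on the right, and most points cross from below 0 to above it.

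Of the chromosome axis genes, Sycp2, which builds the lateral element of the synaptonemal complex, and Hormad1, an axis protein that recruits the break machinery, were measured. Sycp2 had levels of 1.31, -0.23, 1.04 and -0.06 in Glis3KO2 samples, against -1.06, 0.27, 1.38 and 2.09 in WT samples. The WT samples span the whole range of the Glis3KO2 samples, and the difference was -0.15 (SE 0.64, adjusted p = 0.957, limma). The 3 Sycp2 probes disagreed in sign, with differences of -0.15, -0.76 and 0.53, the last from a probe well above background on only 4 of the 8 arrays. Hormad1 ranged from -2.15 to -1.38 in Glis3KO2 samples and from -1.82 to -0.04 in WT samples.

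The 4 measured genes of the synaptonemal complex's centre had lower means in Glis3KO2 samples, with differences of -0.08 to -0.72. Tex12, a central element protein, had levels of -0.90, -0.88, -1.39 and -0.80 in Glis3KO2 samples, against -1.10, -1.11, 0.23 and 0.89 in WT samples. WT replicates 1 and 2 lay inside the Glis3KO2 range and replicates 3 and 4 above it, which gave a difference of -0.72 (SE 0.44, adjusted p = 0.698, limma). Its second probe gave -0.67. Sycp1, the transverse filament that bridges the homologues, Syce1 and Syce2 had the same arrangement of WT replicates 3 and 4 above the other WT samples.

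The meiotic cohesins hold sister chromatids together and form the core of the axis. Stag3, the subunit shared by the meiotic cohesin complexes, had levels of 1.46, 1.42, 1.85 and 2.23 in Glis3KO2 samples, against 1.55, 1.47, 2.72 and 3.53 in WT samples. The upper WT pair again lay above all Glis3KO2 samples, and the difference was -0.58 (SE 0.45, adjusted p = 0.739, limma). Smc1b ranged from -0.46 to 0.77 in Glis3KO2 samples and from -0.25 to 2.01 in WT samples, and Rec8, the subunit cleaved when chromosomes separate, from -0.34 to 0.21 in Glis3KO2 samples and from -0.41 to 0.95 in WT samples. Their differences were -0.52 and -0.38.

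The genes grouped here under break formation and the PRDM9 marks held 3 of the 4 most negative differences, those of Mei4, Mei1 and Zcwpw1. Zcwpw1, a reader of the histone marks laid down by PRDM9, had levels of 0.48, 0.13, 0.74 and 0.61 in Glis3KO2 samples, against 0.72, 1.20, 1.06 and 1.93 in WT samples. Only WT replicate 1 overlapped the Glis3KO2 range, the means were 0.49 ± 0.26 in Glis3KO2 and 1.23 ± 0.51 in WT samples (SD, n = 4 each), and the difference was -0.74 (SE 0.29, adjusted p = 0.697, limma). Its second probe gave -0.20.

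Mei4, a partner of SPO11 in making breaks, had levels of -4.68, -3.68, -3.17 and -3.16 in Glis3KO2 samples, against -3.50, -3.82, -1.36 and -1.77 in WT samples. The lower WT pair lay within the Glis3KO2 range, and the difference was -1.06 (SE 0.58, adjusted p = 0.697, limma). The second Mei4 probe was well above background on 1 array alone and did not pass the filter. Mei1, also needed for breaks in mice, had levels of -0.12, -0.58, -0.35 and 0.77 in Glis3KO2 samples, against 0.25, 0.21, 1.38 and 1.13 in WT samples. Only Glis3KO2 replicate 4 lay inside the WT range, and the difference was -0.81 (SE 0.38, adjusted p = 0.697, limma). Prdm9 had levels of -4.20, -5.13, -5.53 and -3.28 in Glis3KO2 samples, against -4.99, -5.06, -4.85 and -4.62 in WT samples. The WT values lay inside the Glis3KO2 range, close to background, with a difference of 0.34 (SE 0.44, adjusted p = 0.837, limma). Spo11 itself ranged from -3.91 to -2.86 in Glis3KO2 samples and from -3.69 to -2.74 in WT samples.

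Of the strand exchange genes, Dmc1 had levels of -4.71, -4.32, -3.44 and -6.24 in Glis3KO2 samples, against -6.62, -5.26, -4.00 and -3.45 in WT samples. Both genotypes spread over about the same dim range, and the difference was 0.15 (SE 0.74, adjusted p = 0.963, limma). Psmc3ip and Mnd1, which encode both subunits of the HOP2-MND1 accessory complex of DMC1, differed by -0.52 and -0.12, and Meiob, a single-stranded DNA binding protein of meiosis, by -0.59. Tex15, needed for meiotic break repair, differed by -0.55. Trip13, the ATPase that strips HORMA domain proteins from the axis and also acts in the mitotic spindle checkpoint, ranged from 2.70 to 3.45 in Glis3KO2 samples and from 2.66 to 4.01 in WT samples. The overlap between genotypes was wide for all 6 genes of this class.

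Of the crossover genes, Msh4 had levels of -3.85, -5.77, -4.77 and -4.32 in Glis3KO2 samples, against -3.53, -5.48, -3.35 and -2.72 in WT samples. Only WT replicate 2 lay inside the Glis3KO2 range, and the difference was -0.91 (SE 0.59, adjusted p = 0.708, limma). Msh5, its partner, had levels of -4.14, -4.17, -2.48 and -3.79 in Glis3KO2 samples, against -3.49, -5.54, -3.81 and -3.76 in WT samples. Its difference of 0.51 (SE 0.51, adjusted p = 0.796, limma) had the opposite sign to that of Msh4. Mlh3, of the mismatch repair family, had levels of -1.39, -1.17, -1.52 and -0.92 in Glis3KO2 samples, against -0.72, -1.18, -0.54 and -0.66 in WT samples. WT replicate 2 alone lay inside the Glis3KO2 range, and the difference was -0.47 (SE 0.24, adjusted p = 0.697, limma), while the second probe of the gene gave 0.20.

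Ccnb1ip1, a ubiquitin ligase that limits the sites of crossover, had levels of -2.08, -2.69, -2.24 and -2.45 in Glis3KO2 samples, against -2.91, -3.91, -1.91 and -1.45 in WT samples. WT samples lay on both sides of the Glis3KO2 samples, with a difference of 0.18 (SE 0.47, adjusted p = 0.928, limma). Hfm1, a meiotic helicase, and Tex11, an X-linked crossover protein, differed by -0.39 and -0.20. Terb1 had levels of -3.80, -4.21, -3.81 and -3.79 in Glis3KO2 samples, against -4.05, -4.32, -4.61 and -3.73 in WT samples. The WT samples span the Glis3KO2 samples, and the difference was 0.27 (SE 0.25, adjusted p = 0.768, limma). Tex14, which keeps the bridges between germ cells open and is no part of the recombination machinery, ranged from -2.97 to -1.64 in Glis3KO2 samples and from -3.06 to -0.22 in WT samples.

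**Figure D3:**
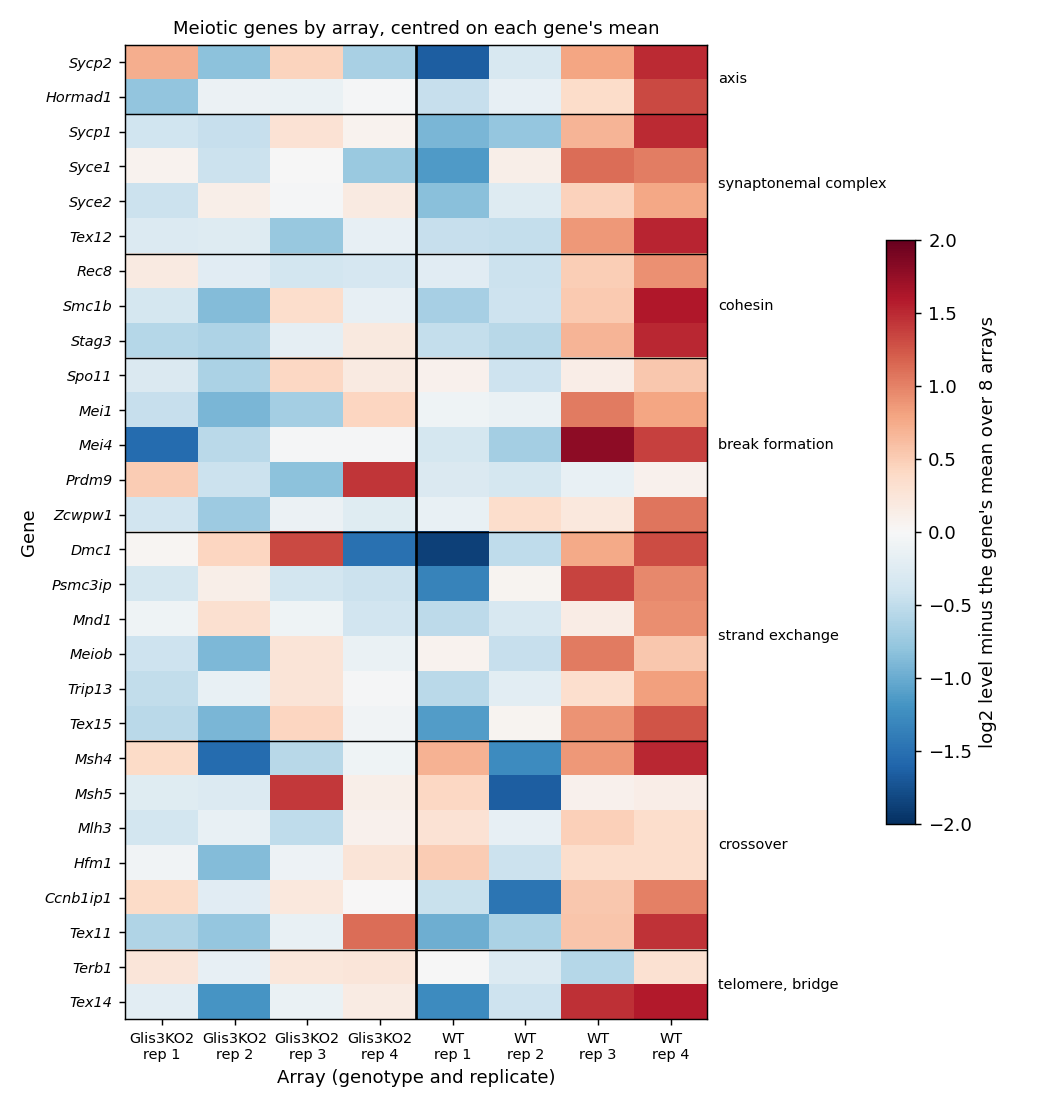
Log2 level of each measured meiotic gene on each array, centred on the gene's mean over the 8 arrays, with genes ordered by role and Glis3KO2 arrays left of WT arrays. WT replicates 3 and 4 are red in most rows and WT replicates 1 and 2 mostly blue, so the WT arrays differ among themselves more than the Glis3KO2 arrays do.

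The pattern that the meiotic genes share is a split within WT. On their slides, the arrays of WT replicates 1 and 2 lay at position 1 and those of WT replicates 3 and 4 at position 2. The split and the position of the array therefore cannot be told apart. WT replicates 3 and 4 were the 2 highest WT samples for 24 of the 28 genes, against 29.9% of all genes, the exceptions being Zcwpw1, Msh5, Hfm1 and Terb1. They were the 2 highest of all 8 samples for 19 of the 28, against 15.2% of all genes. The median SD of a gene within the genotype was 0.43 in Glis3KO2 samples and 0.96 in WT samples, against 0.37 and 0.43 over all genes. Averaged over the 28 genes after centring, the levels were -0.23, -0.47, 0.02 and -0.02 in Glis3KO2 samples, against -0.49, -0.44, 0.62 and 1.0 in WT samples.

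Without WT replicates 3 and 4, an alternative listed with those results known, 7 of the 28 genes had a lower mean in Glis3KO2 samples (53.8% of all genes) and the median difference was 0.26, against -0.03 over all genes. Sycp1 (0.72) and Ccnb1ip1 (1.05) then had an unadjusted p under 0.05, both higher in Glis3KO2 samples, against 4.4% of all genes, and neither passed after adjustment. Within replicates 3 and 4, 25 of the 28 were lower (59.7% of all genes) and the median difference was -0.91, while within replicates 1 and 2, 12 were lower (52.4% of all genes) and it was 0.14. WT replicates 3 and 4 were the 2 highest WT samples for 24 of the 28 genes. Leaving them out therefore raises those differences by construction, and the change of sign decides nothing about the shift. Without WT replicate 1 the median difference was -0.632, and without WT replicate 2 it was -0.595, with 24 of the 28 lower in each case. The 7 genes that stayed lower without WT replicates 3 and 4 were also closer to 0: the difference of Mei4 was then -0.01, that of Meiob -0.10 and that of Msh4 -0.17. Hfm1 (-0.24), Mei1 (-0.30), Mlh3 (-0.30) and Zcwpw1 (-0.47) made up the rest. Without WT replicate 4 alone, 17 of the 28 were lower and the median difference was -0.15.

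The samples are labelled as spermatogonial progenitors, and 6 of 6 general germ cell markers were flagged well above background on all 8 arrays (84.5% of all named genes were). Stromal markers were flagged too, 7 of 7 on all Glis3KO2 arrays (86.2% of all named genes) and 6 of 7 on all WT arrays (86.8%). The flag was set for most named genes, so these counts do not show that a cell type was present. General germ cell markers and markers of undifferentiated spermatogonia moved with the same samples as the meiotic genes. Markers of differentiating spermatogonia did so less clearly. Their centred means were -0.15, -0.23, 0.06 and 0.42 in Glis3KO2 samples, against -0.44, -0.48, 0.33 and 0.49 in WT samples. The split within WT was seen in Sertoli cell markers too. The Sertoli cell markers had centred means of -0.55, -0.40, -0.145 and 0.66 in Glis3KO2 samples, against -0.43, -0.31, 0.54 and 0.64 in WT samples. The 6 of 6 general germ cell markers, among them the RNA-binding proteins Ddx4 and Dazl, had lower means in Glis3KO2 samples, with a median difference of -1.01. Their centred means were -0.63, -0.88, -0.15 and -0.26 in Glis3KO2 samples, against -0.34, -0.33, 1.07 and 1.53 in WT samples. Their summed level, on the log2 scale, was 4.54 to 5.35 in Glis3KO2 samples and 4.62 to 6.67 in WT samples. The 14 of 14 markers of undifferentiated spermatogonia were also lower (median difference -0.80), and their summed level was 2.77 to 2.98 in Glis3KO2 samples and 3.10 to 4.04 in WT samples. Stromal markers, collagens among them, ran the other way in 7 of 7 genes (median difference 1.17), with a summed level of 6.37 to 8.33 in Glis3KO2 samples and 5.09 to 7.26 in WT samples. The median differences without WT replicates 3 and 4 were -0.15 for the general germ cell markers (5 of 6 lower), -0.30 for the markers of undifferentiated spermatogonia (11 of 14 lower) and 0.44 for the stromal markers (7 of 7 higher). The part of these markers in the difference of the meiotic genes was not tested.

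Scaled to the mean of the 6 general germ cell markers in place of the 75th percentile, an alternative chosen after seeing the data, 1 of the 28 genes, Mei4 (-0.10), had a lower mean in Glis3KO2 samples, against 2.07% of all genes. The median difference became 0.53, with all genes at 0.88, so relative to all genes the distance of -0.35 was the same by construction.

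The other marker lists were not alike in direction. Of the 13 markers of pachytene spermatocytes and spermatids, 12 had lower means in Glis3KO2 samples (59.2% of all genes had), with a median difference of -0.39. No overlap between genotypes was found for 4 of them, all 4 lower (2.6% of all genes were lower with none). These markers had 12 of 13 lower without WT replicates 3 and 4 too (53.8% of all genes), with a median of -0.25. The 6 tested markers of differentiating spermatogonia had a median difference of 0.23, with 2 of them lower, and the 9 Sertoli cell markers one of -0.24, with 6 lower. Smooth muscle markers were higher in 4 of 4 (median 1.12), macrophage markers in 5 of 5 (0.44) and lymphocyte markers in 3 of 4 (0.29), endothelial markers were higher in 2 of 4 (0.36), and Leydig cell markers were lower in 4 of 4 (-0.33).

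**Figure D4:**
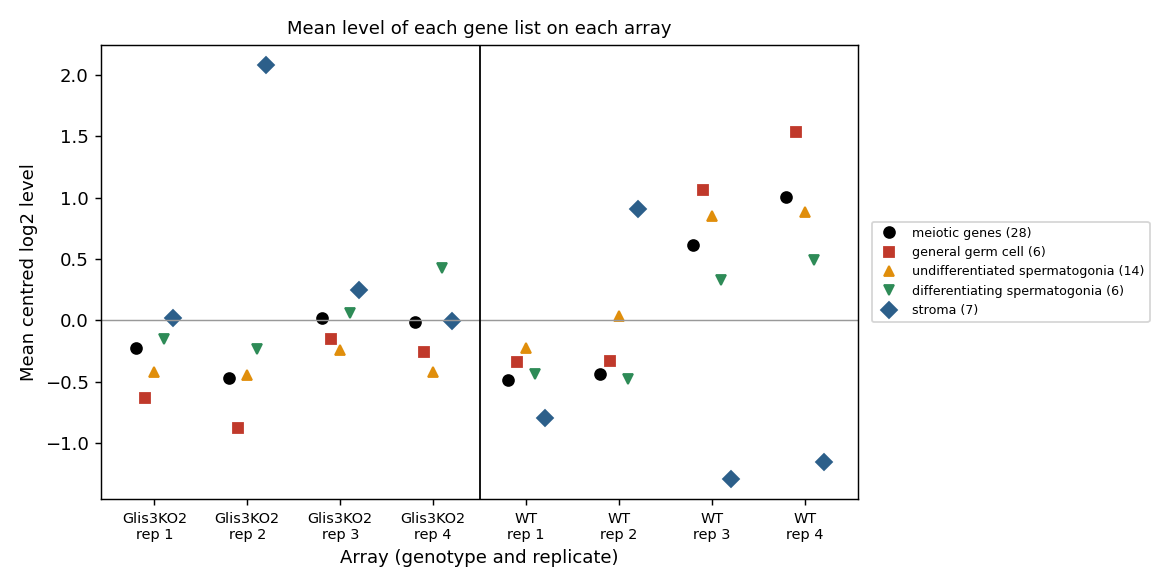
Mean centred log2 level of the 28 meiotic genes and of 4 marker lists on each array, with Glis3KO2 arrays left of WT arrays. The meiotic genes, the general germ cell markers and the markers of undifferentiated spermatogonia are highest on WT replicates 3 and 4, where the stromal markers are lowest. The markers of differentiating spermatogonia are at 0.42 on Glis3KO2 replicate 4, against 0.33 and 0.49 on WT replicates 3 and 4. The stromal markers are highest on Glis3KO2 replicate 2, at 2.08.

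Other genes of meiosis, 61 outside the 34, gave 50 that could be tested. Of these, 41 had a lower mean in Glis3KO2 samples (59.2% of all genes had) and 9 a higher one, with a median difference of -0.29, and 0 passed after adjustment (limma). There were 25 of the 50 lower without WT replicates 3 and 4 (53.8% of all genes). There were 5 with an unadjusted p under 0.05, all lower in Glis3KO2 samples, which is to be read against 4.75% of all genes lower at that threshold. Atm, the kinase that responds to double-strand breaks and limits their number, had levels of 0.37, 0.31, 0.36 and 0.46 in Glis3KO2 samples, against 0.61, 1.30, 1.24 and 1.30 in WT samples. It was the 1 gene of the 50 with no overlap between genotypes (2.6% of all genes were lower with none), and its difference was -0.73 (SE 0.23, adjusted p = 0.697, limma). The other four were Rpa2 (-0.82), a subunit of the single-stranded DNA binding complex RPA, Swsap1 (-1.02), a protein of DNA break repair, Spdya (-0.85), the cyclin-like partner of CDK2 at meiotic telomeres, and Meikin (-0.59), a meiotic kinetochore protein. The flag was set for Swsap1 on 1 of 4 Glis3KO2 arrays and 3 of 4 WT arrays, and for Spdya on 2 of 4 Glis3KO2 arrays and 4 of 4 WT arrays, so their sizes rest partly on signals near background.

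By role, the strand exchange genes of this wider list were lower in 12 of 12 (median -0.44), the break genes in 5 of 6 (-0.33), the crossover genes in 5 of 5 (-0.36), the axis genes in 7 of 9 (-0.25), the telomere genes in 6 of 7 (-0.14) and the checkpoint genes in 4 of 6 (-0.02), beside the 59.2% of all genes. The genes of meiotic entry were mixed. Stra8, the retinoic acid target that starts the meiotic programme, had levels of 0.31, 0.15, 0.04 and 1.19 in Glis3KO2 samples, against 0.55, 0.31, 1.27 and 1.83 in WT samples. The ranges overlap widely, and the difference was -0.57 (SE 0.38, adjusted p = 0.713, limma). Over the 5 tested genes of meiotic entry the differences ran from -0.80 to 0.65, with 3 of them higher in Glis3KO2 samples. None of these 5 had an unadjusted p under 0.05. Without WT replicates 3 and 4 the median over the 50 genes was 0.02, and within replicates 1 and 2 it was 0.03.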

How the data were processed

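Per the labels' protocols, total RNA was amplified (Ovation Pico WTA, NuGEN) and the cDNA labelled with Cy3. The deposited scanner files hold spot intensities that Agilent Feature Extraction 12.0.0.7 had background-subtracted and detrended within each array, per the file headers, with flags for spots well above background. The deposited value table equalled these intensities on 100% of spots. It is linear and not centred, with column medians of 67.2 to 143.6.

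From these, log2 intensity was computed relative to the 75th percentile of each array's non-control spots, leaving out 73 to 109 outlier-flagged spots per array. Of 41174 probes, 28223 matched 1 gene by unversioned RefSeq accession in a GRCm38.p6 table and 12951 stayed unnamed; the headers' probe annotation is on mm9. A probe was kept if flagged well above background on 4 or more of the 8 arrays, and the probe of highest mean stood for its gene. Kept probes differed in sign for 2 of the 9 meiotic genes with several.

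The test was limma's (version 3.58.1, R 4.3.3; lmFit, eBayes) with genotype alone, adjusted by Benjamini-Hochberg over 17513 genes, after the code was tested on simulated data. Slide 1 held replicates 1 and 3 of both genotypes, and slide 2 the others. On each slide WT and Glis3KO2 had their own positions, so position and genotype cannot be told apart. Deviations of same-numbered arrays correlated across genes at 0.16, 0.34, 0.18 and 0.13, all over the 0.1 set for pairing; the genes are not independent replicates. WT replicate 3 with Glis3KO2 replicate 4 (0.14) and WT replicate 4 with Glis3KO2 replicate 3 (0.12) were over it too.

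Per-array values are given for meiotic genes with an unadjusted p under 0.05 or no overlap, the 5 largest differences in each direction, those not flagged throughout a genotype or with probes of opposite sign, and the largest difference in any role still without one. From the other lists, genes with an unadjusted p under 0.05 or the 3 smallest p of a list may be named, as may Glis3, Thy1, Ddx4, Dazl and Stra8. The members, lists, motifs and alternatives were chosen with earlier results of these data known. Alternatives were other background corrections, normalizations, filters, probe and detection rules, blocks, array weights, subsets of replicates, and each array left out in turn.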

Additional observations from a re-analysis of the deposited data

Results flagged for a closer look

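In groups of 4 arrays, 4 of the 56 groups tested held 1 array far from the other three, where chance gives about 2.8. Hormad1 lay at -2.149 on Glis3KO2 replicate 1, with the other Glis3KO2 samples between -1.496 and -1.381. Psmc3ip lay at -0.599 on Glis3KO2 replicate 2, with the others between -1.136 and -1.068. Terb1 lay at -4.21 on Glis3KO2 replicate 2, with the others between -3.813 and -3.794. Msh5 lay at -5.541 on WT replicate 2, with the other WT samples between -3.812 and -3.491.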

How the results depend on the processing

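With 4 arrays a genotype and a split within WT, differences of the size seen here were not separable from the spread between samples. The count of meiotic genes passing the adjusted threshold was 0 under every alternative run. Over all genes, 1 gene (Gm16702, adjusted p = 0.0675 in the limma fit reported) passed with quantile normalization of the log2 signal, and 1 passed at an adjusted p under 0.10. The number of meiotic genes with an unadjusted p under 0.05 was 5 with normexp and the 75th percentile, against 9.37% of all genes. It was 5 with the replicate block (10.7% of all genes) and 5 with array weights (13.2%). It was 2 without WT replicates 3 and 4 (4.4%) and 0 with the mean over kept probes (7.21%). With each array left out it was 0 to 8, against 3.79% to 13.7% of all genes. The most were found without WT replicate 1 (8.31% of all genes), and 7 without WT replicate 2 (13.7%). With each array left out, 17 to 24 of the 28 were lower in Glis3KO2 samples, their median difference was -0.63 to -0.15 and that of the wider meiotic list -0.46 to -0.14, and 25 to 26 genes were flagged on all Glis3KO2 arrays and 23 to 25 on all WT arrays. The replicate block also moved the number of all genes with an unadjusted p under 0.05, to 1877 against 1208 without it, and changed no adjusted call of a meiotic gene.

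Without WT replicates 3 and 4, 7 of the 28 genes were lower and the medians became 0.26 and, for the wider list, 0.016. Scaled to germ cell markers, 1 was lower and they became 0.53 and 0.675. Within replicates 1 and 2, 12 were lower and they became 0.135 and 0.026, and within replicates 3 and 4 the wider list's median was -0.656. Only 7 of the 28 genes kept their sign in every setting other than the germ cell marker scaling. They were Hfm1, Mei1, Mei4, Meiob, Mlh3, Msh4 and Zcwpw1. Without WT replicates 3 and 4, Mei4 was at -0.01, Meiob at -0.10 and Msh4 at -0.17. The signs of others turned, none of them called in the fit reported, and the cause was not tested. Without WT replicates 3 and 4 the differences were Sycp2 0.91, Hormad1 0.046, Sycp1 0.72, Syce1 0.23, Syce2 0.50, Tex12 0.11, Rec8 0.14, Smc1b 0.28, Stag3 0.23, Spo11 0.081, Psmc3ip 0.38, Mnd1 0.36, Trip13 0.27, Tex15 0.25, Tex11 0.71 and Tex14 0.50. With normexp and the 75th percentile they were Syce2 0.18, Prdm9 -0.54, Dmc1 -0.75, Trip13 0.031, Msh5 -0.64, Ccnb1ip1 -0.59 and Terb1 -0.58, and with normexp and quantile Dmc1 -0.004 and Ccnb1ip1 -0.035. Within slide 1 they were Sycp2 1.02, Sycp1 0.058, Syce1 0.04, Smc1b 0.079, Mnd1 0.094 and Tex15 0.053, within slide 2 Dmc1 -0.93, and with array weights Dmc1 -0.14 and Ccnb1ip1 -0.04. With each array left out the ranges crossed 0 for Sycp2 (-0.73 to 0.32), Syce2 (-0.37 to 0.17), Sycp1 (-0.59 to 0.21), Spo11 (-0.34 to 0.02), Mnd1 (-0.31 to 0.17), Trip13 (-0.41 to 0.038), Tex11 (-0.60 to 0.25), Dmc1 (-0.45 to 0.67), Prdm9 (-0.078 to 0.67) and Ccnb1ip1 (-0.27 to 0.55). Among genes whose range kept its sign, single arrays moved the value by over 1.5 times for Stag3 (-0.86 to -0.17), Tex12 (-1.0 to -0.33), Tex14 (-1.22 to -0.27) and Mei4 (-1.47 to -0.64), among others.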
